A study of Mus musculus with 5 samples.

Results

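Reclaiming filtered bicarbonate and making ammonia are paired tasks of the proximal tubule, and 9 genes that carry them out were followed in injured mouse kidneys. They are Slc9a3, Slc4a4, Car2, Car4, Car12, Car14, Pck1, Slc38a3 and Glul, taken by exact gene symbol from the 35478 genes that the count tables list. Tissue came from 5 mice, with 1 RNA-seq library each: 2 were Prdm16fl/fl, called the control mice here, and 3 were Ksp-Cre/Prdm16fl/fl, called the Cre-positive mice. All were male, used for the injury model at 7 to 8 weeks of age, and homozygous for a Prdm16 allele with exon 9 flanked by loxP sites. The paper's methods give a mixed C57BL/6J and 129 background, whereas the sample titles name C57BL/6J alone. Ksp-Cre expresses Cre recombinase from the promoter of Cdh16 (Ksp-cadherin), which is active in tubular epithelium and is known for its strength in distal segments. Whether the proximal cells that hold most of the present genes lost Prdm16 was not measured in these data. From genotyping and from staining beside a proximal and a distal tubule marker, the paper reports that PRDM16 was deleted in the tubules. Every mouse had undergone unilateral ischemia-reperfusion injury (UIRI): blood flow to the left kidney was stopped for 35 minutes at 38.5 °C, the other kidney was taken out on day 10, and the injured kidney was collected 24 hours later, on day 11. No uninjured kidney was analysed here, so all values compare genotypes among injured kidneys. The mice are numbered 1 and 3 in the Prdm16fl/fl group and 1, 2 and 3 in the Ksp-Cre/Prdm16fl/fl group, as labelled.

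In the proximal tubule, the sodium/proton exchanger NHE3 (Slc9a3) secretes acid across the apical membrane, carbonic anhydrases turn the resulting carbonic acid into carbon dioxide and back into bicarbonate, and the cotransporter NBCe1 (Slc4a4) returns that bicarbonate to the blood. The same cells take up glutamine through SNAT3 (Slc38a3) and break it down to ammonium, which leaves in the urine, while its carbon skeleton goes toward glucose through phosphoenolpyruvate carboxykinase (Pck1). Glutamine synthetase (Glul) runs the other way and fixes ammonia into glutamine. In metabolic acidosis Slc38a3 and Pck1 are known to be induced and glutamine synthetase to be reduced.

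The Pck1 promoter is a textbook example of hormonal and acid-base control. Windows of 250 bases upstream of the annotated start were taken from RefSeq (GRCm38.p6), which gave 8 windows for 7 of the 9 genes, with a pair for Slc4a4. Car2 and Slc38a3 had none. They are shown for Pck1, and for Slc9a3 and Car14 because only these 2 genes reached an adjusted p under 0.05 in the genotype comparison described further on. Each runs 5′ to 3′ on the strand of its gene.
Pck1, chr2:173152823-173153072, plus strand: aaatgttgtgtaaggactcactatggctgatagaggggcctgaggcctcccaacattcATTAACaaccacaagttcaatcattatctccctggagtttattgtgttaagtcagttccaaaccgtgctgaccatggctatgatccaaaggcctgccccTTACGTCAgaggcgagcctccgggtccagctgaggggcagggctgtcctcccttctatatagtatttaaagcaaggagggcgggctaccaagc
Slc9a3, chr13:74121163-74121412, plus strand: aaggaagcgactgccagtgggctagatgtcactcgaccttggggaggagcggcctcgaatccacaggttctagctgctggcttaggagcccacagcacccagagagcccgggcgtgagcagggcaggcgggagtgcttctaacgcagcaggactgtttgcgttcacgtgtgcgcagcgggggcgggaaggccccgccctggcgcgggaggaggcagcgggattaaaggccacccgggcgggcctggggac
Car14, chr3:95904686-95904935, minus strand: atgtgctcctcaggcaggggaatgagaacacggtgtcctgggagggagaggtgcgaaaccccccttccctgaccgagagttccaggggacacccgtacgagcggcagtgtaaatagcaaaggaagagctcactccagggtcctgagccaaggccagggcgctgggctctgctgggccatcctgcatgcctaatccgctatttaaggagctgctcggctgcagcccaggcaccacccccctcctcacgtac
Capitals in the Pck1 window mark TTACGTCA, the cAMP response element known from this promoter, which lay 93 to 86 bases before the start. They also mark ATTAAC, the reverse complement of GTTAAT, one arm of the site for the hepatocyte nuclear factor HNF1, which lay 192 to 187 bases before it. Both strands were searched, and the letters were chosen after the Pck1 window had been read. TTACGTCA was in 0.447% of 32851 promoter windows of that length and GTTAAT in 6.43%, and neither was in another window of the 9 genes. GTTAAC, another form of that arm, was in the Car4 window and in 2.56% of all windows. The palindrome TGACGTCA (1.55% of all windows) and TATAAA (12.4%) were in none of the 8 windows. These are matches of letters, and no binding was measured.

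The counts summed to between 14939040 and 16425161 per library, 16394 genes passed the filter on low counts, and all 9 genes were among them. Levels are given as CPM, counts per 1000000 after scaling the libraries with the TMM method of edgeR. Cre-positive mouse 3 stood apart, with a Pearson's r of log2 CPM across genes of 0.943 to 0.960 to the other libraries, which had r of 0.970 to 0.991 among themselves. Prdm16, the targeted gene, was at 25.3 and 20.02 CPM in control mice and at 17.1, 17.0 and 18.0 CPM in Cre-positive mice, a log2 fold change of -0.38 that did not pass edgeR's quasi-likelihood test (adjusted p = 0.259). The count covers the whole gene in all cells of the tissue, whereas the loxP sites flank exon 9 only, and reads of that exon were not counted apart. Markers of the proximal tubule were present in every library. All 11 were lower in Cre-positive mice, with a median log2 fold change of -1.45 against 0.0377 over all tested genes. Their sum was 24464 and 30411 CPM in control mice against 7664, 9561 and 12115 CPM. Of 8 markers of injured tubule, 6 were higher without overlap, as were 3 of 4 fibroblast markers. By contrast, 3 of 3 podocyte markers and 1 of 4 endothelial markers were lower without overlap, and 0 of 5 macrophage markers were separated. Of all tested genes, 46.0% were lower, 21.3% were lower without overlap and 20.3% were higher without overlap, so the endothelial count was near that share. In whole tissue, fewer cells of a type and less RNA per cell cannot be told apart, and this holds for every value that follows.

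Of the 9 genes, the 5 that belong to acid secretion and carbonic anhydrase activity (Slc9a3, Car4, Car14, Car2 and Car12) were lower in all 3 Cre-positive mice than in both control mice. The other 4 (Slc4a4, Slc38a3, Pck1 and Glul) overlapped between the genotypes. For comparison, such a separation was found downward for 21.3% of all tested genes and upward for 20.3%. An adjusted p under 0.05 was reached by 2 of the 9, Slc9a3 and Car14, where 0.872% of all tested genes reached it downward and 0.104% upward. When a log2 fold change of 1 or more in either direction was asked for as well, 1 of the 9 passed, Car14, beside 0.628% of the tested genes downward and 0.0793% upward. Of the 9 log2 fold changes, 8 were below zero, as were 46.0% over all tested genes, and their median was -0.87.

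**Figure D1:**
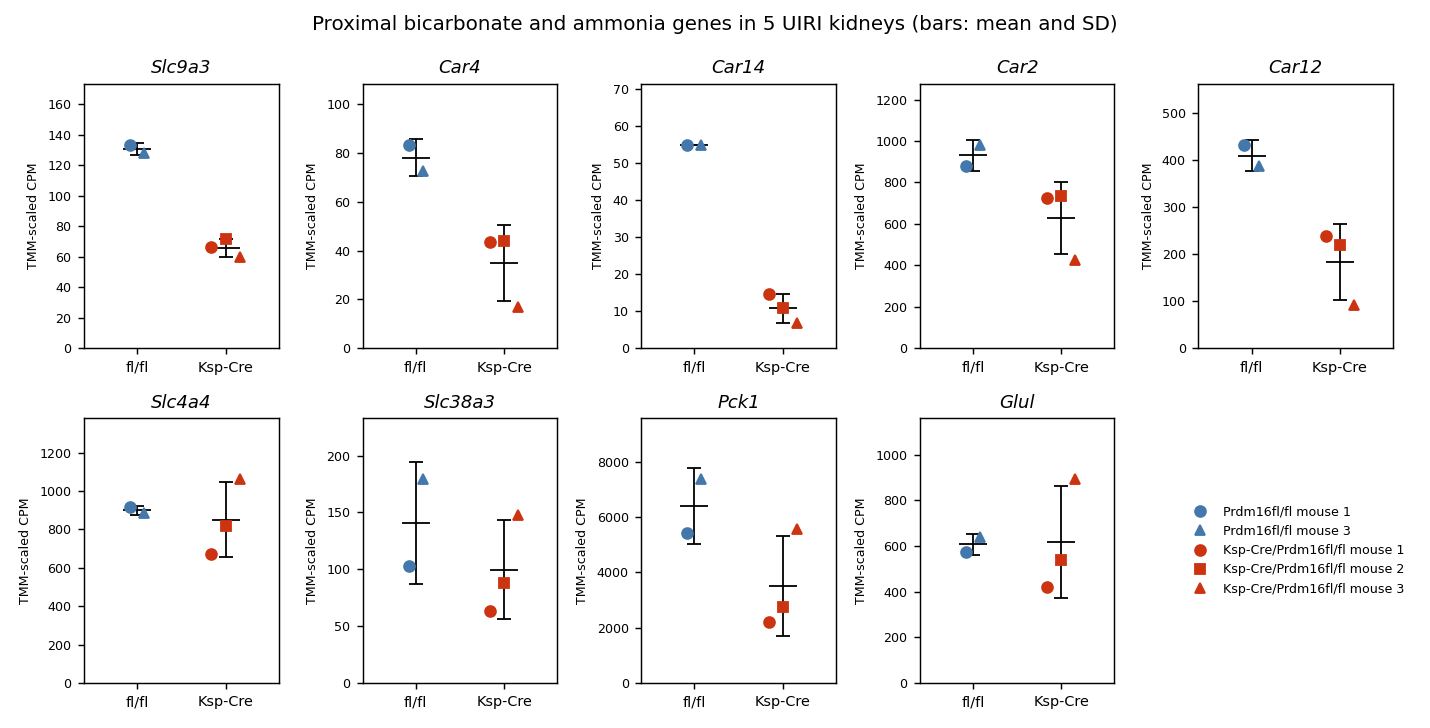
TMM-scaled CPM of the 9 genes in each kidney, with each panel on its own linear axis from 0. Points are single mice (blue, Prdm16fl/fl; red, Ksp-Cre/Prdm16fl/fl), horizontal lines are group means and bars are SDs; the upper row shows the 5 genes whose genotypes do not overlap and the lower row the 4 whose genotypes do.

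Slc9a3, on the plus strand of chromosome 13 from 74234374 to 74317561 in the coordinates of the files, is the main route of apical proton secretion. It stood at 134 and 128 CPM in control mice 1 and 3 and at 66.5, 71.4 and 59.7 CPM in Cre-positive mice 1, 2 and 3. The mice of each genotype lay close together, Cre-positive mouse 3 included, and the genotypes did not overlap. The mean was 131 ± 3.92 CPM (SD, n = 2) against 65.9 ± 5.88 CPM (SD, n = 3), which is 1.99-fold lower. Its log2 fold change was -0.99 (SE 0.12, 95% interval -1.28 to -0.70), with an adjusted p of 0.0412 in the quasi-likelihood test of edgeR. That passed the adjusted threshold and fell just short of the fold threshold. Over the fits without 1 mouse the log2 fold change stayed between -1.05 and -0.92. Of the 5 such fits, its adjusted p passed 0.05 in the one that dropped Cre-positive mouse 3 (9.7e-04), and was 0.261 and 0.496 without control mouse 1 or 3 and 0.129 and 0.136 without Cre-positive mouse 1 or 2.

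Car14 showed the largest difference of the 9. It encodes carbonic anhydrase XIV, a transmembrane enzyme with its active site outside the cell, known from the membranes of proximal tubule cells, and its gene is listed on chromosome 3, minus strand, 95805080 to 95812443. It was at 54.7 and 54.9 CPM in control mice and at 14.6, 10.9 and 6.80 CPM in Cre-positive mice 1, 2 and 3. All 3 Cre-positive mice were far below the control pair, with mouse 3 the lowest. The means of 54.8 ± 0.106 CPM (SD, n = 2) and 10.8 ± 3.90 CPM (SD, n = 3) differed 5.10-fold. In edgeR's quasi-likelihood test the log2 fold change was -2.35 (SE 0.29, 95% interval -3.06 to -1.63, adjusted p = 0.0412), and 0.415% of the tested genes had a lower one. Without 1 mouse it ranged from -2.63 to -2.10, and the adjusted p was 2.5e-04 without Cre-positive mouse 3 and between 0.105 and 0.496 without any other mouse. At its 3′ end Car14 shares 485 exon bases, 20% of its exon length, with Aph1a on the opposite strand, and whether counting used the strand is not given in the sources used here. Aph1a, a subunit of gamma-secretase, was at 95.1 and 91.6 CPM in control mice against 93.7, 85.2 and 88.4 CPM, with a log2 fold change of -0.07.

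Car4 and Car12 encode 2 more membrane-bound enzymes, and their 5 libraries fell in nearly the same order. Car4 (chromosome 11, 84848580 to 84856880, plus strand), carbonic anhydrase IV, is anchored to the luminal membrane, where it splits the carbonic acid formed by proton secretion. It was at 83.5 and 72.8 CPM in control mice and at 43.6, 44.0 and 16.7 CPM in Cre-positive mice. The third Cre-positive mouse was thus well below the other two, which resembled each other. The means of 78.1 ± 7.52 CPM (SD, n = 2) and 34.8 ± 15.6 CPM (SD, n = 3) gave a log2 fold change of -1.17 (SE 0.39, 95% interval -2.13 to -0.21) that did not pass the threshold (adjusted p = 0.196, edgeR). Without Cre-positive mouse 3 the difference was smaller, at -0.83, and passed (adjusted p = 0.00188 in edgeR).

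Car12 (chromosome 9, 66619026 to 66674127, plus strand), carbonic anhydrase XII, is found in more than one tubule segment. It was at 433 and 387 CPM in control mice and at 239, 220 and 91.8 CPM in Cre-positive mice. Mouse 3 was again the lowest, and its difference from the mean of the other two Cre-positive mice was -1.32 in log2 CPM, against -1.38 for Car4. The means were 410 ± 32.8 CPM (SD, n = 2) and 184 ± 80.1 CPM (SD, n = 3), and the log2 fold change was -1.16 (SE 0.39, 95% interval -2.10 to -0.22, adjusted p = 0.193 in edgeR). It passed an adjusted p of 0.05 in DESeq2 (0.042) and in edgeR without Cre-positive mouse 3 (-0.83, adjusted p = 0.00249).

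Car2 (chromosome 3, 14951329 to 14965830, plus strand), the cytosolic carbonic anhydrase II, supplies protons and bicarbonate inside proximal cells and is also abundant in intercalated cells and red blood cells. Its level was 879 and 982 CPM in control mice and 725, 734 and 427 CPM in Cre-positive mice. The separation between genotypes was narrow for the first pair of Cre-positive mice and wide for mouse 3. The means of 930 ± 73.3 CPM (SD, n = 2) and 629 ± 175 CPM (SD, n = 3) differed by -0.57 on the log2 scale (SE 0.26, 95% interval -1.20 to 0.06, adjusted p = 0.31 in edgeR). In TPM, which is not TMM-scaled, Car2 was at 1036 and 1050 in control mice and at 999, 1009 and 525 in Cre-positive mice, so that only mouse 3 was far from the control pair. Markers of the other cells that hold Car2 went in opposite directions. The 8 markers of intercalated cells were all lower, 7 of them without overlap, and summed to 722 and 560 CPM against 439, 334 and 283 CPM. The 5 erythroid markers were all higher without overlap, and summed to 6.67 and 10.8 CPM against 151, 150 and 40.5 CPM. Of all tested genes, 21.3% were lower and 20.3% higher without overlap. What each cell type contributed to Car2 was not tested.

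Slc4a4, the basolateral exit for bicarbonate (chromosome 5, 88941717 to 89387515, plus strand), did not follow Slc9a3 and the carbonic anhydrases above. It was at 915 and 884 CPM in control mice and at 672, 819 and 1061 CPM in Cre-positive mice. The first 2 Cre-positive mice were below the control pair and mouse 3 above it. Means were 900 ± 22.3 CPM (SD, n = 2) and 851 ± 196 CPM (SD, n = 3), with a log2 fold change of -0.08 (SE 0.22, adjusted p = 0.87 in edgeR). The 95% interval of -0.61 to 0.45 leaves room for a moderate change either way, and the sign turned with the scaling (0.020 when scaled by library size alone) and without Cre-positive mouse 1 (0.065).

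Among the ammonia genes, Slc38a3 (chromosome 9, 107528353 to 107546167, minus strand), which brings glutamine in from the blood side, varied more between mice of 1 genotype than between genotypes. It was at 103 and 179 CPM in control mice and at 63.3, 87.8 and 148 CPM in Cre-positive mice. Mouse 3 lay between the control mice and the other two below both. The means were 141 ± 53.8 CPM (SD, n = 2) and 99.6 ± 43.4 CPM (SD, n = 3), and the log2 fold change was -0.50 (SE 0.39, 95% interval -1.46 to 0.46, adjusted p = 0.531 in edgeR). Single mice decided it, since it was -0.050 without control mouse 3 and -0.90 without Cre-positive mouse 3, where it passed (adjusted p = 0.0355 in edgeR).

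Pck1 (chromosome 2, 172994866 to 173001067, plus strand), whose promoter window is printed above, had the highest level of the 9, per length (in TPM) as well as in CPM. It was at 5424 and 7357 CPM in control mice and at 2184, 2754 and 5556 CPM in Cre-positive mice. The first 2 Cre-positive mice were far below both control mice, whereas mouse 3 was just above the lower of them. The means of 6390 ± 1366 CPM (SD, n = 2) and 3498 ± 1805 CPM (SD, n = 3) were 1.83-fold apart, with a log2 fold change of -0.87 (SE 0.42, 95% interval -1.89 to 0.15, adjusted p = 0.328 in edgeR). Leaving out mouse 3 moved it to -1.37 with an adjusted p of 0.00249 in edgeR.

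Glul (chromosome 1, 153775675 to 153785469, plus strand), the enzyme that consumes ammonia, was at 574 and 638 CPM in control mice and at 420, 540 and 891 CPM in Cre-positive mice. Mouse 3 was the highest of all 5 and the other two the lowest. Means of 606 ± 45.0 CPM (SD, n = 2) and 617 ± 245 CPM (SD, n = 3) gave a log2 fold change of 0.03 (SE 0.32, 95% interval -0.75 to 0.80, adjusted p = 0.973 in edgeR), and without mouse 3 it was -0.33 (adjusted p = 0.129).

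**Figure D2:**
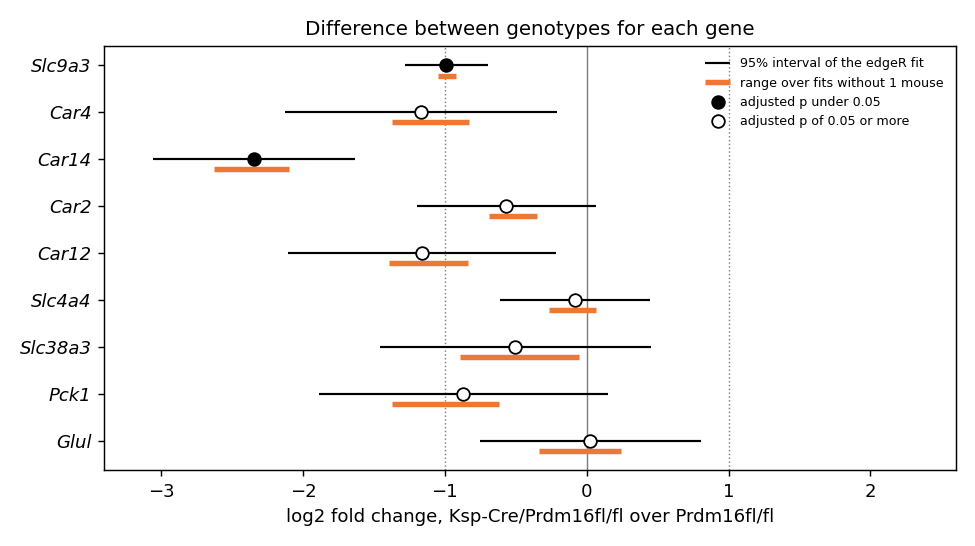
Log2 fold change of each gene, Ksp-Cre/Prdm16fl/fl over Prdm16fl/fl. Circles are the edgeR estimates from 5 kidneys (filled where the adjusted p is under 0.05, Slc9a3 and Car14), black lines their 95% intervals, orange bars the range over the 5 fits without 1 mouse, and dotted lines a log2 fold change of 1 in size; the orange bars of Slc4a4 and Glul cross 0.

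In the third Cre-positive mouse the 9 genes went in different directions, a grouping read from the values. It did not follow role alone, since Slc4a4, a bicarbonate gene, went with the ammonia genes. Mouse 3 had the lowest level of all 5 kidneys for Slc9a3 and the 4 carbonic anhydrases, with differences from the mean of Cre-positive mice 1 and 2 of -0.21 (Slc9a3), -0.77 (Car2), -0.88 (Car14), -1.32 (Car12) and -1.38 (Car4) in log2 CPM. For the other 4 it was the highest of the 3 Cre-positive mice, with differences of 0.52 (Slc4a4), 0.90 (Glul), 0.98 (Slc38a3) and 1.18 (Pck1). These are differences of 1 kidney from 2 others of its genotype and have no replicate. Marker sums of that kidney were also apart. Late proximal (S3) markers summed to 334 and 599 CPM in control mice and to 57.1, 91.5 and 10.9 CPM in Cre-positive mice 1, 2 and 3. Thick ascending limb markers summed to 2939 and 3909 CPM against 2683, 2367 and 1257 CPM, and distal convoluted tubule markers to 1509 and 956 CPM against 827, 581 and 201 CPM. Mouse 3 was thus the lowest in the sum of each of these 3 lists. Among the Cre-positive mice it had the highest sum of the 11 proximal markers, in which Kap alone stood at 7403 CPM, but the lowest level of 7 of them, and its median log2 difference from the control mean over the 11 was -1.74, against -1.64 and -1.29 in mice 1 and 2. The part of these markers in the values above was not tested. When edgeR was run without that mouse, Slc9a3, Car4, Car12, Car14, Pck1 and Slc38a3 (6 of the 9) passed an adjusted p of 0.05, all of them lower. Among all tested genes the same was true of 11.0% downward and 7.82% upward, so the background was far higher too. On all 5 mice DESeq2 gave 3 of the 9, Slc9a3, Car14 and Car12, where 5.33% of the genes it adjusted passed downward and 1.87% upward.

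Compared per length, in the deposited TPM, the 9 genes kept a similar order of levels in both genotypes. In control mice the means were 5264 TPM for Pck1, 1043 for Car2, 471 for Glul, 217 for Slc4a4, 159 for Car12, 105 for Car4, 90.5 for Slc38a3, 49.4 for Car14 and 45.5 for Slc9a3. In Cre-positive mice they were 3352 TPM for Pck1, 844 for Car2, 559 for Glul, 240 for Slc4a4, 85.4 for Car12, 75.1 for Slc38a3, 56.1 for Car4, 27.1 for Slc9a3 and 11.6 for Car14. The last places changed over, since Car14 was above Slc9a3 in both control mice and below it in all 3 Cre-positive mice. Car4 and Slc38a3 could not be ranked, because their order differed between the 2 control mice. Glul passed Car2 in Cre-positive mouse 3, where Glul was at 759 TPM and Car2 at 525 TPM.

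Since markers of the proximal tubule were lower as a whole, each gene was also set against them within its own kidney, as its log2 CPM minus the median log2 CPM of the 11 markers. On this scale 5 genes (Slc9a3, Car2, Slc4a4, Slc38a3 and Glul) were higher in all 3 Cre-positive mice than in both control mice, and Car14 was lower. The markers' median log2 difference from the control mean was -1.64, -1.29 and -1.74 in Cre-positive mice 1, 2 and 3. A gene of equal CPM in all kidneys would thus come out higher on this scale, so the count of 5 is no separate result. The share over all tested genes was not calculated here. Glul stood at -0.67 and -0.49 against 0.66, 0.39 and 1.67. Slc4a4 stood at 0.0064 and -0.020 against 1.34, 0.99 and 1.93. Their differences between genotypes were 1.49 and 1.43, with an exact permutation p = 0.1 each.

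Slc9a3 stood at -2.77 and -2.81 relative to the markers in control mice and at -1.99, -2.52 and -2.22 in Cre-positive mice, a difference of 0.54 upward (exact permutation p = 0.2). Its lower CPM was thus a smaller difference than that of the proximal markers. Car14 stood at -4.05 and -4.03 against -4.17, -5.22 and -5.33, a difference of -0.87 (exact permutation p = 0.2), with Cre-positive mouse 1 close to the control pair. Car2 and Slc38a3 differed by 0.93 and 0.999, the latter by 0.59 without control mouse 1 or Cre-positive mouse 3. Pck1, Car12 and Car4 overlapped between genotypes with differences of 0.56, 0.26 and 0.24, and that of Pck1 was 0.089 without Cre-positive mouse 3. Over the 9 genes, the smallest Benjamini-Hochberg value of these exact permutation tests was 0.3, and the design cannot give a single p under 0.1. Any single median rests on the marker in the middle of the list, and the 11 markers themselves ranged in log2 fold change from -2.68 to -0.46.

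**Figure D3:**
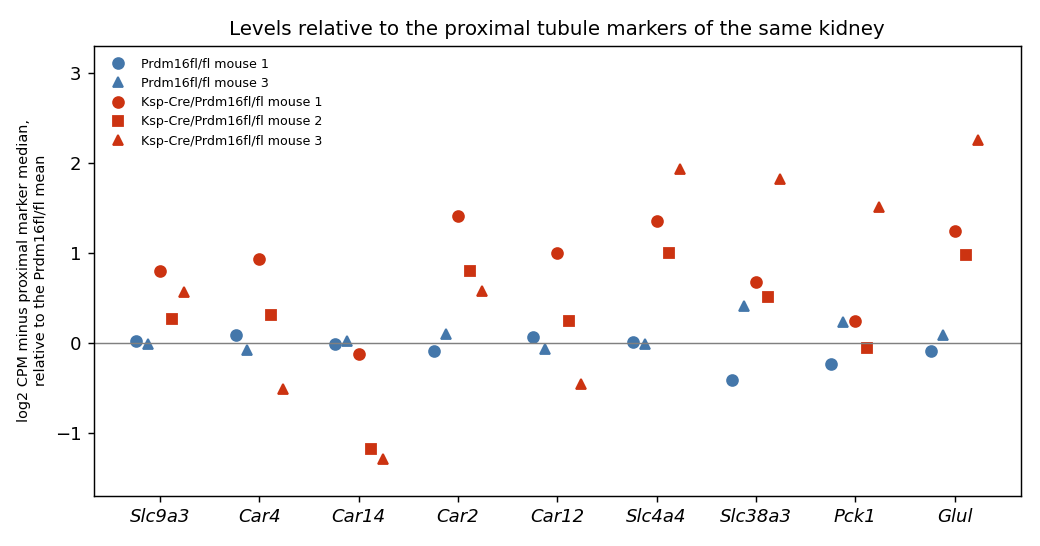
Log2 CPM of each gene minus the median log2 CPM of the 11 proximal tubule markers of the same kidney, drawn relative to the mean of the control mice (0). Points are single mice; all red points of Slc9a3, Car2, Slc4a4, Slc38a3 and Glul lie above the blue ones, and those of Car14 lie below.

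The other genes of these pathways were taken as 4 lists. Of 20 further genes of ammonia production and gluconeogenesis, 18 were lower, 11 of them without overlap between genotypes, and the median log2 fold change was -0.50. Over all tested genes, 46.0% were lower and 21.3% were lower without overlap. Pcx and Fbp1 fell past both thresholds, as did 0.628% of all tested genes. Pcx, pyruvate carboxylase, the entry of pyruvate into gluconeogenesis, was at 344 and 364 CPM in control mice and at 136, 130 and 153 CPM in Cre-positive mice, a log2 fold change of -1.34 (adjusted p = 0.0327 in edgeR). Fbp1, fructose-1,6-bisphosphatase, which acts downstream of Pck1, was at 680 and 716 CPM against 337, 352 and 347 CPM, a log2 fold change of -1.01 (adjusted p = 0.0412 in edgeR). Both genes were even among the 3 Cre-positive mice, mouse 3 included, unlike Pck1. They lost their calls in each edgeR fit that left out a mouse other than Cre-positive mouse 3.

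Some genes of that list with the highest CPM follow, none of which passed the test. Glud1, glutamate dehydrogenase, which releases ammonia from glutamate, was at 921 and 1121 CPM against 557, 551 and 1109 CPM, so that mouse 3 lay between the control mice and the other two below both, as for Pck1. Mdh1, cytosolic malate dehydrogenase, and Ogdh, a subunit of oxoglutarate dehydrogenase, were lower without overlap, with log2 fold changes of -0.99 and -0.54 (adjusted p = 0.0541 and 0.138 in edgeR).

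Of 18 further proximal exchangers, channels and scaffolds, 11 were lower and 7 higher, 8 of the lower ones and 1 of the higher ones (Ezr) without overlap. Such a separation was found downward for 21.3% of all tested genes and upward for 20.3%. None reached an adjusted p under 0.05 in edgeR, and 6 of the 18 had an unadjusted p under 0.05 beside 18.8% of all tested genes. DESeq2 gave 2 with an adjusted p under 0.05 (Slc26a6 and Slc9a8), where 5.33% of the genes it adjusted passed downward and 1.87% upward. The median log2 fold change of the list was -0.31. Ezrin (Ezr), which ties NHE3 to the cytoskeleton, was at 687 and 666 CPM in control mice and at 782, 807 and 1201 CPM in Cre-positive mice. The other brush border scaffolds among the 5 genes of this list with the highest mean CPM were lower without overlap. Not every scaffold of the list was separated in this way. The scaffold NHERF1 (Slc9a3r1) was at 328 and 378 CPM against 271, 252 and 207 CPM, and Pdzk1 was at 434 and 399 CPM against 267, 302 and 146 CPM. Ahcyl1 (IRBIT), a regulator of NBCe1 and NHE3, had a log2 fold change of -0.37. The potassium channel gene Kcnj15 was at 854 and 829 CPM against 394, 538 and 1007 CPM, with the same order of mice as Slc4a4 among Cre-positive kidneys.

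Among 12 further carbonic anhydrase genes, 9 passed the filter on low counts, and Car1, Car6 and Car10 had 4 counts or fewer in every library. Of the 9, 7 were lower, 4 of them without overlap, and 2 were higher, 1 of them (Car13) without overlap, with a median of -0.26. The shares without overlap over all tested genes were 21.3% lower and 20.3% higher. None reached an adjusted p under 0.05 in edgeR, and 5 of the 9 had an unadjusted p under 0.05 (18.8% over all tested genes). DESeq2 gave 2 with an adjusted p under 0.05 (Car3 and Car13), where 5.33% of the genes it adjusted passed downward and 1.87% upward. Car15, a membrane-anchored enzyme with the highest CPM of this list, was at 201 and 147 CPM in control mice and at 143, 91.8 and 106 CPM in Cre-positive mice. Car5b, a mitochondrial enzyme, was at 62.9 and 74.0 CPM against 56.5, 59.9 and 92.9 CPM, and Car13, a cytosolic one, at 12.1 and 12.1 CPM against 17.6, 18.4 and 22.1 CPM. Car3 and Car11 had log2 fold changes of -0.78 and -0.26. Members of the family thus lay on both sides of 0. In TPM, Car2 held the highest level of the family in all 5 kidneys.

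The last list held 7 genes of acid sensing and distal ammonia secretion, with a median log2 fold change of 0.07. The ammonia channels Rhcg and Rhbg, which secrete ammonia in the collecting duct, and Insrr, a receptor that senses alkali, were lower without overlap. The other 4 were higher with overlap. A downward separation was found for 21.3% of all tested genes. Rhcg was at 197 and 178 CPM in control mice and at 111, 92.1 and 36.4 CPM in Cre-positive mice, and Rhbg at 83.3 and 69.2 CPM against 48.5, 33.5 and 7.13 CPM. Insrr was at 64.0 and 51.4 CPM against 22.4, 14.9 and 4.33 CPM, and for all 3 genes mouse 3 was the lowest. It was also the lowest for the carbonic anhydrases among the 9 and for the sum of the intercalated cell markers given above. Of those 8 markers taken singly, however, it was the lowest Cre-positive mouse for only 3. The part of these markers in the values was not tested. None of the 7 genes reached an adjusted p under 0.05 in edgeR, and 2 had an unadjusted p under 0.05 (18.8% over all tested genes). DESeq2 gave 1 with an adjusted p under 0.05 (Insrr), where 5.33% of the genes it adjusted passed downward and 1.87% upward. Ptk2b and Ednrb, kinase and endothelin receptor genes known from the acid response of proximal cells, had log2 fold changes of 0.07 and 0.57.

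**Figure D4:**
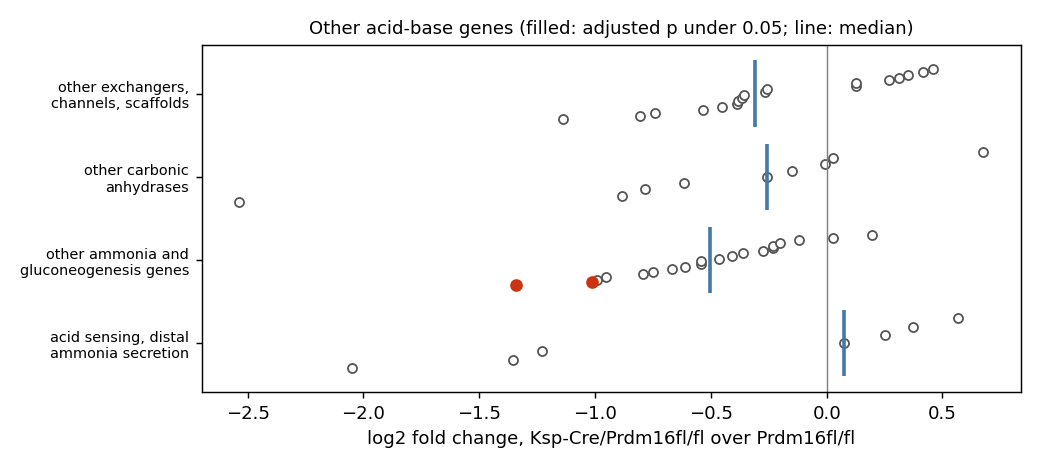
Log2 fold change (Ksp-Cre/Prdm16fl/fl over Prdm16fl/fl, edgeR, 5 kidneys) of the other tested genes of the 4 lists, with 1 circle per gene and a blue line at the median of each list. The filled circles are Pcx and Fbp1, the genes with an adjusted p under 0.05, and the medians lie at -0.31, -0.26, -0.50 and 0.07 from top to bottom.

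Among 9512 genes whose mean log2 CPM was 4 or more, those whose log2 CPM followed Slc9a3 most closely over the 5 libraries were Spink1, Pm20d1 and Tmco1, with Pearson's r of 0.9991, 0.999 and 0.9987. Spink1, a trypsin inhibitor, was at 397 and 386 CPM against 200.3, 209 and 183 CPM. Ceacam1 and Iars2 were among the closest to Slc4a4 (0.9986 and 0.9959) and Pno1, Mkln1 and Polr3e to Pck1 (0.9978, 0.9976 and 0.9973). With 5 libraries such values come easily, as 455 genes exceeded an r of 0.95 with Slc9a3, 116 with Slc4a4 and 207 with Pck1.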

How the data were processed

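RNA-seq of injured kidneys from 2 Prdm16fl/fl and 3 Ksp-Cre/Prdm16fl/fl mice, collected on day 11, was analysed, grouped by genotype as labelled, with cortex named as the tissue in the methods. The authors deposited raw read counts per gene for each mouse, without normalization. The submitters' processing notes name CASAVA, featureCounts 2.0.1, DESeq2 1.16.1 and hg38, a human build. The aligner, the mouse build and the use of strand are not given in the sources used here, and the coordinates differ from those of GRCm38. The authors also deposited TPM and FPKM, which were recomputed from the counts and differed by rounding only. TPM was used to compare levels between genes and FPKM in an alternative. The lines of 5 genes were broken and were rejoined.

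The 9 genes and the lists were chosen with earlier results of these data known. Genes named are the 9, the 5 of each list with the highest mean CPM, list genes with an adjusted p under 0.05, and the 3 genes closest in pattern to Slc9a3, Slc4a4 and Pck1. Some genes under this rule are not reported here. Slc26a6, Slc9a8 and Aph1a were named after their values were seen. Counts were filtered with filterByExpr (16394 of 35478 genes), scaled with TMM and tested with the quasi-likelihood test of edgeR 4.0.16 in R 4.3.3, without covariates, with Benjamini-Hochberg adjustment over all tested genes. Calls required an adjusted p below 0.05 together with a log2 fold change of 1 or more in either direction. Single values were compared with two-sided exact permutation tests over 10 splits of the 5 mice. The closest libraries differed by more than counting error (chi-square per degree of freedom 9.89), so none was counted as a duplicate.

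Alternatives were DESeq2 1.42.0, other filters (1 count in total, or 10 in every library), other scalings (RLE, upper quartile, library size), the mouse number as a block, limma 3.58.1 on log2(FPKM + 1) and log2(FPKM + 0.1), a loess correction (span 0.3) for gene length and GC content, and leaving out each mouse. Scripts were first tested on simulated data. Depth was 14939040 to 16425161 counts per library, and the errors given are the spread between mice. Promoter windows and their motifs come from RefSeq (GRCm38.p6).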

Additional observations from a re-analysis of the deposited data

How the results depend on the processing

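With 2 and 3 mice, the number of genes called changed with the setting and with the mice kept. Leaving out a mouse also leaves fewer libraries for the test, and this was not told apart from the influence of that kidney. The 116 genes called became 495 with DESeq2, 287 without a filter beyond 1 count, 46 with library size scaling, 55 and 43 with limma on log2(FPKM + 1) and log2(FPKM + 0.1), and 57 when gene length and GC content were corrected for. Leaving out 1 mouse gave 0 to 733, with 733 without Ksp-Cre/Prdm16fl/fl mouse 3 and 0 in edgeR without any of the other 4, where 1330 to 2514 genes had an unadjusted p under 0.05. With the mouse number as a replicate block edgeR called 0 genes (2061 with an unadjusted p under 0.05). Whether equal numbers pair mice across genotypes is not stated. Deviations of same-numbered mice from their group means had an r of 0.00102 and -0.022. With 2 control mice, whose deviations mirror each other, these values cannot show whether the mice were paired. The share of higher genes among those called was 11.2%, against 23.4% with DESeq2, 26.1% with library size scaling (which moved the median of all genes to 0.149 on the log2 scale), 25.5% and 30.2% with the 2 limma fits and 31.5% without Ksp-Cre/Prdm16fl/fl mouse 3.

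Slc9a3 kept its direction but missed an adjusted p of 0.05 with library size scaling (-0.87, adjusted p = 0.0714), the replicate block (-1.05, 0.168) and the limma fits (-0.82 and -0.88, 0.0682 and 0.0766). Car14 did so with library size scaling (-2.22, 0.0651), the replicate block (-2.44, 0.149), the limma fits (-2.06 and -2.28, 0.0591 and 0.0716) and the length and GC correction (-2.31, 0.0505). Without 1 mouse, the ranges were -1.05 to -0.92 for Slc9a3 and -2.63 to -2.10 for Car14. Those of Car4, Car12, Slc38a3 and Pck1, which passed without Ksp-Cre/Prdm16fl/fl mouse 3, were -1.37 to -0.83, -1.39 to -0.83, -0.90 to -0.050 and -1.37 to -0.62, and Car12 also passed with DESeq2 (-1.16). Slc4a4 turned to 0.020 with library size scaling, 0.0055 and 0.0054 with limma and 0.065 without Ksp-Cre/Prdm16fl/fl mouse 1 (range without 1 mouse -0.27 to 0.065). Glul turned to -0.052 without Prdm16fl/fl mouse 1 and to -0.33 without Ksp-Cre/Prdm16fl/fl mouse 3 (range -0.33 to 0.24). Car2 kept its direction and stayed above an adjusted p of 0.05 throughout.

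Of the lists, the 2 calls of ammonia production and gluconeogenesis (Pcx and Fbp1) became 1 with library size scaling, both limma fits and the length and GC correction, 0 with the replicate block (10 of 20 with an unadjusted p under 0.05 in edgeR), and 0 to 5 without 1 mouse, where 5 was the count lacking mouse 3 of the Ksp-Cre/Prdm16fl/fl group and 0 the count lacking any of the other 4 (7 to 10 with an unadjusted p under 0.05). DESeq2 called 1 gene among the exchangers and 1 among acid sensing, and without 1 mouse the carbonic anhydrases and acid sensing had 0 to 1. For none of these was the cause tested. Relative to the proximal markers, the differences of Car4 and Car12 ranged over all settings from -0.10 to 0.62 and -0.11 to 0.62, those of Pck1, Slc38a3, Slc9a3 and Car14 from 0.089 to 0.87, 0.59 to 1.41, 0.37 to 0.68 and -1.24 to -0.66, and 7 of the 9 kept their sign. Without Ksp-Cre/Prdm16fl/fl mouse 1, Car4 and Car12 turned to -0.10 and -0.11, and mouse 3 of that group gave their upper ends when left out.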
